A study of Mus musculus with 11 samples.

Results

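The 7 mouse genes that encode inhibitors of cyclin-dependent kinases, Cdkn1a, Cdkn1b, Cdkn1c, Cdkn2a, Cdkn2b, Cdkn2c and Cdkn2d, were examined for occupancy by PU.1, an Ets family transcription factor, out of 22367 protein-coding genes in the annotation. The members were chosen by name, and each region is the gene body with 10 kb on each side on mm9, counted in 500 bp windows. PU.1 ChIP-Seq, in which DNA recovered with an antibody (anti-PU.1, T-21) is sequenced beside input DNA, was done in mouse erythroleukemia (MEL) cells and in ES-EP, erythroid progenitors that had been differentiated from embryonic stem cells. The MEL cells were a single clone with a stably expressed GATA-1 fused to ER, the estrogen receptor ligand-binding domain, grown in DMEM with serum and puromycin. The ES-EP carried no transgene named in the labels and proliferated in StemPro34 with Epogen, hIGF-1, dexamethasone and murine SCF. In each cell type 2 chromatin preparations (A and B) were immunoprecipitated and each was sequenced as 2 libraries, which were summed, so that n = 2 preparations per cell type. Input was 1 library in MEL cells and 2 in ES-EP. Transformation, the fusion protein and the culture conditions all separate the MEL cells from ES-EP, so that their parts in a difference cannot be told apart. Limma p-values between cell types rest on 1 shared estimate of the spread, from these preparations and the 2 ES-EP input libraries. They say nothing of a spread beyond these samples.

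Cyclin-dependent kinases drive the cell from one phase of the division cycle to the next, and the inhibitors hold them back. The Cip/Kip family, p21 (Cdkn1a), p27 (Cdkn1b) and p57 (Cdkn1c), binds cyclin-kinase complexes of several kinds, whereas the INK4 family, p16 (Cdkn2a), p15 (Cdkn2b), p18 (Cdkn2c) and p19 (Cdkn2d), binds Cdk4 and Cdk6 and keeps them from D-type cyclins. Cdkn2a also encodes Arf, an activator of p53 read from an upstream start site, and Cdkn2a and Cdkn2b lie side by side in a locus that is often deleted in immortal cell lines. Erythroid progenitors leave the cell cycle as they mature, and members of both families are known to take part in that exit.

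A window was called where the summed PU.1 reads of a cell type exceeded an expectation from input at equal depth. Both preparations had to lie above it, and the excess was tested by an exact Poisson test. Benjamini-Hochberg adjustment ran over all windows of the genome with at least 1 read. The expectation, called background here, was the highest of 4 rates: that of the window, of 5.5 kb or 10.5 kb centred on it (5 kb or 10 kb for start sites), and of the genome. This is a test on reads, not on preparations, and it takes the background as known. Libraries had between 2054667 and 5051235 reads on the assembled chromosomes, and values are given as reads counted or as RPM, reads scaled to equal library depth. Over the 7 regions 374 windows were counted, of which 20 (5.35%) were called in MEL cells and 13 (3.48%) in ES-EP, 9 of them in both. Of the genome's windows with at least 1 read, 0.665% were called in MEL cells and 0.443% in ES-EP, whereas the 374 include windows without reads. Among 37523 genome windows called in either cell type, counted where every base is assembled, 10080 were called in both. Of the 24 member windows called in either cell type 8 lay within 1 kb of the outermost start site of their gene, where calls are more frequent genome-wide, as given with the start sites. By gene, 6 of the 7 members held a called window in MEL cells and 5 in ES-EP, against 49.9% (MEL cells) and 39.1% (ES-EP) of the regions of all genes up to 25 kb long. Cdkn2d was the member without a called window in either cell type.

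The sequences that follow are 200 bp around the PU.1 summits of 6 called windows, read on the plus strand of mm9. They are shown because they carry GAGGAA, the core that Ets factors recognise with its upstream purines, at the strongest sites of Cdkn1b, Cdkn1c and Cdkn2a and at the sites of Cdkn1a and Cdkn2a with the longer word GAGGAAGT. Capitals mark GAGGAA or its complement TTCCTC, and distances are from the outermost start site of the gene to the middle of the window, positive in the direction of transcription. In the order printed they are chr17:29218957-29219156, chr17:29227557-29227756, chr6:134883258-134883457, chr7:150651999-150652198, chr4:88941058-88941257 and chr4:88935129-88935328.
Cdkn1a at -8.7 kb: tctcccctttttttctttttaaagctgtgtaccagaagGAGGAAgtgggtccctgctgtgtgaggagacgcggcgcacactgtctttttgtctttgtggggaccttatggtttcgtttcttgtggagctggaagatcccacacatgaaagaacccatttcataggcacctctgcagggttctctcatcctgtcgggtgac
Cdkn1a at -0.2 kb: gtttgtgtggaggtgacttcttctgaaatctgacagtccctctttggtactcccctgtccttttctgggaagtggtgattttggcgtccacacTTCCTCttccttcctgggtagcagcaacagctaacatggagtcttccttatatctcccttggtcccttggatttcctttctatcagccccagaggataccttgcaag
Cdkn1b at +12.8 kb: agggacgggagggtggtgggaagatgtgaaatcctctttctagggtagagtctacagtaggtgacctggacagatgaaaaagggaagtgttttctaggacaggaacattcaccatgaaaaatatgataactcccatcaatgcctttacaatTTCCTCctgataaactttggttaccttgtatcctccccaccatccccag
Cdkn1c at -5.3 kb: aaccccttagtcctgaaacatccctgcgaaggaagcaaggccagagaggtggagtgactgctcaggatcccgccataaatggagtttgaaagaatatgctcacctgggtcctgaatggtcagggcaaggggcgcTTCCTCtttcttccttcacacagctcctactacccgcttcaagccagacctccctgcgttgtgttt
Cdkn2a at -0.7 kb: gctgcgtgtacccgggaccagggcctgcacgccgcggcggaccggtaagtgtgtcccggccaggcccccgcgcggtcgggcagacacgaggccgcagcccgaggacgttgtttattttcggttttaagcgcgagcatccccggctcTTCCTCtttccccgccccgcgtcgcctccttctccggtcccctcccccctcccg
Cdkn2a at +5.3 kb: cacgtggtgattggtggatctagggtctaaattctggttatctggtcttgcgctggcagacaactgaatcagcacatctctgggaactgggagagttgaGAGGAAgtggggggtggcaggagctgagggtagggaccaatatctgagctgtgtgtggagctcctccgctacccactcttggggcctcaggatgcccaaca

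Cdkn1a, the p53-induced inhibitor p21 (chr17:29227924-29237667, plus strand), had 1 called window in MEL cells and 3 in ES-EP, among 61. At -8.7 kb from the start, outside any gene (chr17:29219001-29219500), 10 and 19 reads were counted in MEL preparations A and B against 3 in input, and 19 and 6 in ES-EP A and B against 0 in both inputs. PU.1 was above background in both cell types, 3.26-fold in MEL cells and 5.76-fold in ES-EP, and the preparations of the cell types overlapped. Against the input in the window alone the MEL ratio was 3.26 with an exact 95% interval of 1.01 to 16.7, and the ES-EP ratio was at least 4.66 when the input of 0 is set to 3 reads over the group. These intervals cover counting error only. The GAGGAA of the printed sequence lies 59 bp from the summit and a few bases outside the window.

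At the Cdkn1a start itself (-0.2 kb, chr17:29227501-29228000, start site and UTR) 26 and 12 reads were counted in ES-EP A and B against 1 and 4 in the inputs, while MEL A and B had 3 and 1 reads against 0. Both ES-EP preparations lay above both MEL preparations, at 2.91 ± 1.73 RPM in ES-EP and 0.335 ± 0.271 in MEL cells (mean ± SD, n = 2 each). The window was called in ES-EP at 4.25-fold and was not called in MEL cells (0.885-fold). By limma the log2 difference, MEL cells minus ES-EP, was -3.00 with a standard error of 0.86 and an adjusted p of 0.0633, which missed the threshold of 0.05. It passed the threshold under 7 of the 13 alternatives, with adjusted p from 0.0106 to 0.0461, and missed it under the other 6, with 0.165 to 0.442. In the contrast after input the difference was -0.21 (SE 1.90, adjusted p = 0.993). The word GAGGAAGT lies on the minus strand 4 bp from the summit. Without ES-EP preparation A the call over background was lost, at an adjusted p of 0.645 by the exact Poisson test.

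The remaining Cdkn1a window, at +3.8 kb in an intron (chr17:29231501-29232000), had 27 and 17 reads in ES-EP A and B against 4 and 6 in input, and 8 and 18 in MEL A and B against 6. It was called in ES-EP at 2.46-fold and not in MEL cells (1.46-fold), with overlapping preparations and no GAGGAA within the window. The amplicon that the study designed for Cdkn1a, from the primers TCTGTGTACGTGCGTGTGTG and TAAATTCCCGCCTATGTTGG, spans 84 bp at chr17:29232299-29232382, between +4375 and +4458 bp from the same start and so beside this intronic window. In the amplicon with 250 bp on each side 34 and 28 reads were counted in ES-EP A and B against 4 and 14 in input, and 7 and 20 in MEL A and B against 1. The window that holds the amplicon (chr17:29232001-29232500) was called in neither cell type.

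Cdkn1b, the inhibitor p27 (chr6:134870419-134875531, plus strand), had 3 called windows of 52 in each cell type, 2 of them shared. The window with the most reads lay at +12.8 kb, beyond the gene and in no annotated gene (chr6:134883001-134883500), with 25 and 34 reads in MEL A and B against 1 in input and 62 and 24 in ES-EP A and B against 0 and 1. All preparations stood far above their inputs, and the MEL preparations lay within the range of the ES-EP ones. PU.1 was 9.95-fold above background in MEL cells and 18.7-fold in ES-EP, and the ratios to the single input read were 19.9 (3.44 to 799) and 48.1 (8.41 to 1923). The limma difference of PU.1 from input was 4.53 on the log2 scale in ES-EP, with a standard error of 1.13 and an adjusted p of 0.00714, and 3.75 in MEL cells with an adjusted p of 0.283.

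The other Cdkn1b windows were nearer to background. At +6.8 kb (chr6:134877001-134877500, no gene) MEL A and B had 5 and 17 reads against 2, and ES-EP A and B had 19 and 11 against 4 and 4. It was called in both cell types, at 3.71-fold in MEL cells and 2.10-fold in ES-EP, where the adjusted p was 0.043 by the exact Poisson test. At +1.3 kb, in coding sequence and intron (chr6:134871501-134872000), ES-EP A and B had 19 and 5 reads against 1 and 3 in input, and MEL A and B had 5 and 9 against 1. This window was called in ES-EP at 2.64-fold, a call carried by preparation A, since preparation B alone gave a log2 fold of 0.05. The Cdkn1b start was called in neither cell type: MEL A and B had 6 and 28 reads in 1 kb against 12 in input, and ES-EP A and B had 48 and 17 against 11 and 19.

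Cdkn1c, the inhibitor p57 and an imprinted gene (chr7:150644255-150646955, minus strand), had the most windows called in MEL cells, 7 of 46, and 2 called in ES-EP. The strongest lay upstream at -5.3 kb in no gene (chr7:150652001-150652500), with 22 and 51 reads in MEL A and B against 5, and 46 and 34 in ES-EP A and B against 1 and 3. In both cell types every preparation was above its input, by 4.92-fold (MEL cells) and 8.64-fold (ES-EP) over background, at 5.58 ± 2.43 and 6.06 ± 1.79 RPM (mean ± SD, n = 2 each). The limma difference from input was 3.15 (SE 0.76, adjusted p = 0.00404) in ES-EP and 2.08 (SE 0.78, adjusted p = 0.295) in MEL cells, and that between cell types was -0.14 (SE 0.58, adjusted p = 0.936).

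Next to it, at -4.3 kb (chr7:150651001-150651500), MEL A and B had 9 and 25 reads against 2, and ES-EP A and B had 21 and 14 against 2 and 7, a call in both cell types (5.73-fold and 2.18-fold). The other 5 called windows of Cdkn1c, at -3.8, -0.3, +0.2, +0.7 and +1.7 kb, were called in MEL cells only. At +0.2 kb, over the start site (chr7:150646501-150647000), MEL A and B had 5 and 16 reads against 0 in input, whereas ES-EP A and B had 17 and 14 against 3 and 10. The PU.1 reads of the cell types overlapped there once scaled by depth, and the ES-EP input was the higher of the inputs.

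**Figure D1:**
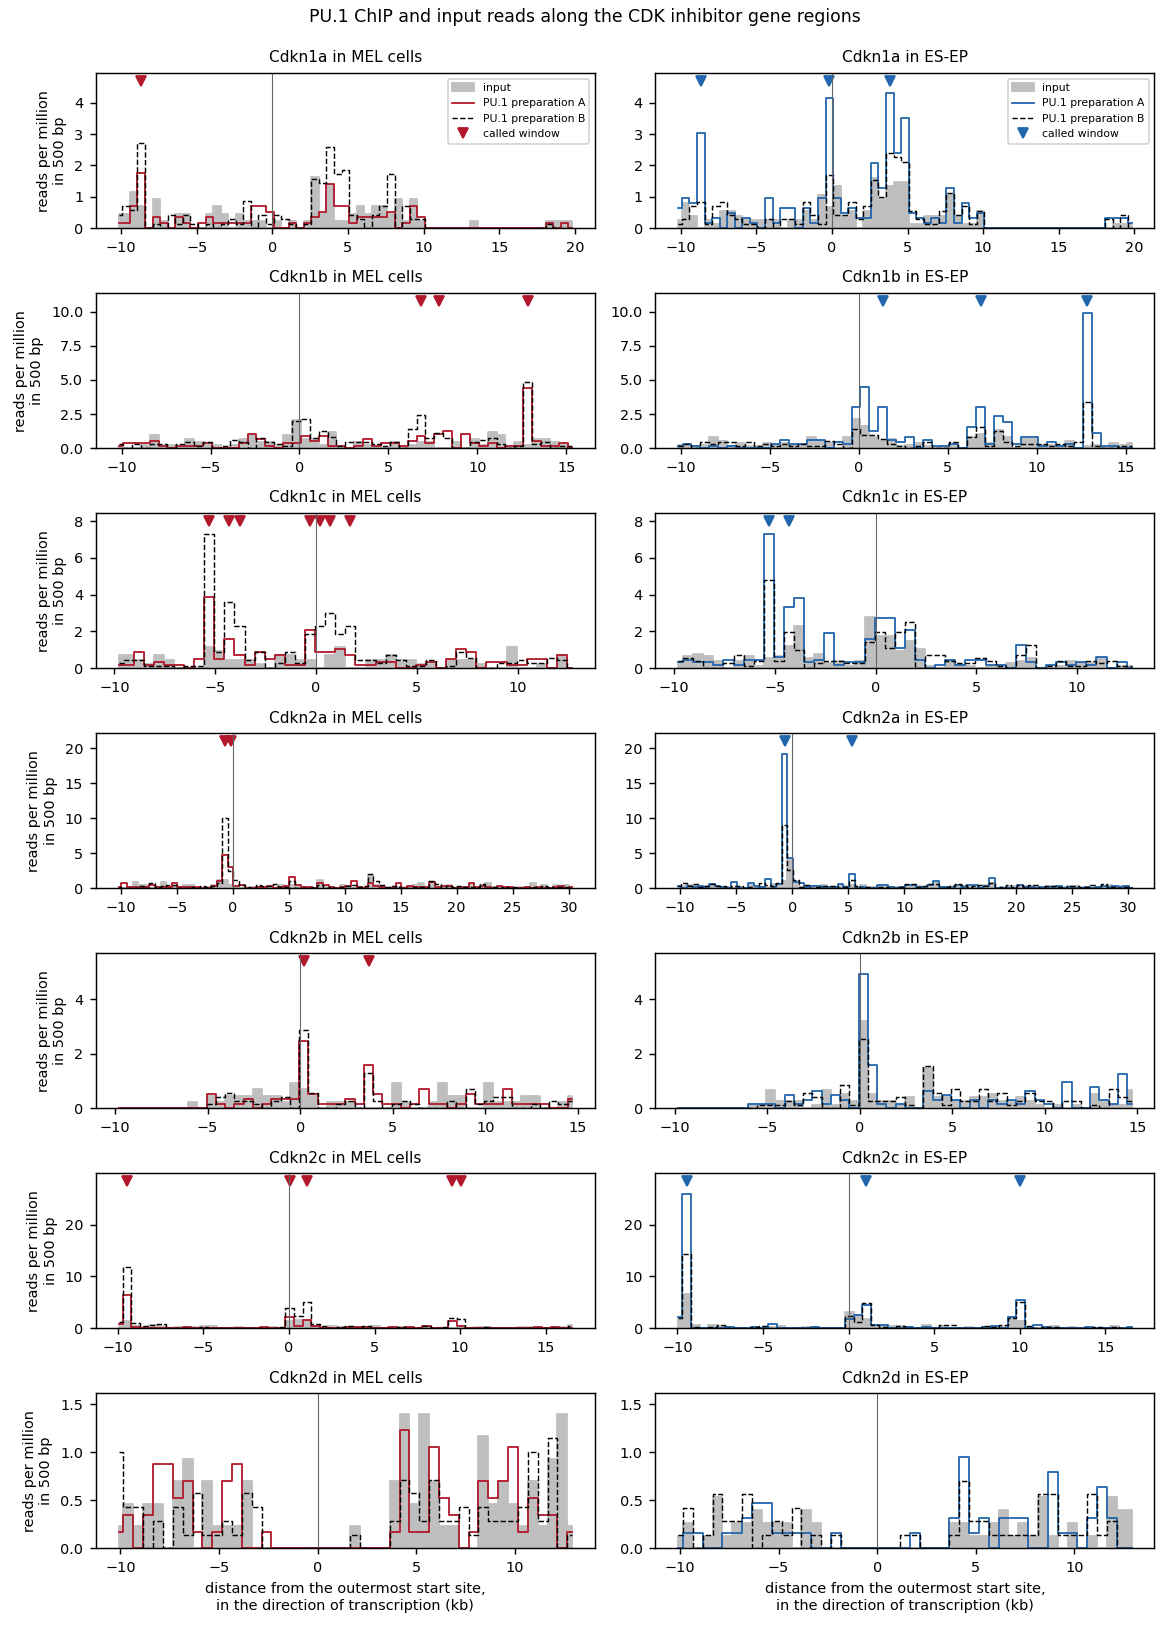
PU.1 ChIP of preparations A (solid line) and B (dashed line) and input (grey) along each region, in RPM per 500 bp window (y axis) against distance from the outermost start site in the direction of transcription (x axis, kb), with triangles over called windows. The tallest windows stand outside the coding parts at Cdkn1b (+12.8 kb), Cdkn1c (-5.3 kb), Cdkn2a (-0.7 kb) and Cdkn2c (-9.5 kb), and Cdkn2d has next to no reads over its gene body.

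Cdkn2a (chr4:88920377-88940557, minus strand) had 2 called windows of 82 in each cell type, 1 of them shared, and the shared window carried the most PU.1 reads of the region. At -0.7 kb from the Arf start, in no gene (chr4:88941001-88941500), 27 and 70 reads were counted in MEL A and B against 5 in input, and 121 and 64 in ES-EP A and B against 2 and 6. All preparations were far above input, the MEL preparation B overlapped ES-EP B, and the means were 7.38 ± 3.73 RPM in MEL cells and 14.1 ± 7.24 in ES-EP (mean ± SD, n = 2 each). The ratios to input were 6.54 (2.71 to 20.6) and 12.9 (6.43 to 30.4). The limma difference from input was 3.47 (SE 0.65, adjusted p = 4.42e-05) in ES-EP and 2.45 (SE 0.78, adjusted p = 0.148) in MEL cells. Between cell types it was -0.91 (SE 0.55, adjusted p = 0.498), which was not called.

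The window beside it, over the Arf start and its UTR (-0.2 kb, chr4:88940501-88941000), had 17 and 17 reads in MEL A and B against 2, and 27 and 19 in ES-EP A and B against 4 and 26. It was called in MEL cells at 5.73-fold and not in ES-EP (0.858-fold), although the PU.1 level of ES-EP in RPM was not the lower one (3.49 ± 1.14 against 2.71 ± 0.389, mean ± SD, n = 2 each). An intronic window at +5.3 kb (chr4:88935001-88935500) had 13 and 8 reads in ES-EP A and B against 1 and 3, and 9 and 7 in MEL A and B against 2. It was called in ES-EP at 2.94-fold, with a ratio to input of 2.94 (0.991 to 11.8), and missed the threshold in MEL cells at 2.70-fold (adjusted p = 0.0633). Its summit lies 2 bp from a GAGGAAGT. The downstream start of Cdkn2a, which gives p16, was called in neither cell type, with 6 and 21 reads in MEL A and B against 9, and 11 and 9 in ES-EP A and B against 3 and 5.

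Cdkn2b, the inhibitor p15 (chr4:88952198-88956941, minus strand), had 2 called windows of 50, in MEL cells, whereas ES-EP had 0. At +0.2 kb, over its start site (chr4:88956501-88957000), 14 and 20 reads were counted in MEL A and B against 3, and 31 and 18 in ES-EP A and B against 7 and 17. At +3.7 kb, in coding sequence and intron (chr4:88953001-88953500), MEL A and B had 9 and 9 reads against 0, and ES-EP A and B had 4 and 11 against 0 and 11. At +0.2 kb MEL cells were 3.82-fold above background and ES-EP 1.14-fold, and at +3.7 kb the MEL ratio to input was at least 2.02 with the input set to 3 reads, and the ES-EP fold was 0.763, while the PU.1 RPM of the cell types overlapped in both windows.

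Cdkn2c, the inhibitor p18 (chr4:109333481-109339794, minus strand), had 5 called windows of 54 in MEL cells and 3 in ES-EP, all 3 shared. The one with the most reads in any member region, at -9.5 kb (chr4:109349001-109349500), covers the start site and UTR of the neighbouring gene Faf1, a Fas-associated factor, and so cannot be assigned to Cdkn2c by distance. There MEL A and B had 37 and 83 reads against 6, and ES-EP A and B had 163 and 101 against 15 and 34. Both ES-EP preparations were above both MEL preparations in RPM, 20.1 ± 8.27 against 9.19 ± 3.81 (mean ± SD, n = 2 each), but the limma difference of -1.11 (SE 0.54) had an adjusted p of 0.395. Over background it was 6.75-fold in MEL cells and 3.02-fold in ES-EP, and the contrast after input was 1.01 (SE 0.95, adjusted p = 0.920). A GAGGAA next to this summit is shown in the 30 bases from chr4:109349204, with the word in capitals.
Faf1 start: gcggcggccgggGAGGAAgcggaggaggcg

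In the Cdkn2c gene itself, the UTR window at +1.0 kb (chr4:109338501-109339000) was called in both cell types, with 9 and 36 reads in MEL A and B against 6 and 28 and 35 in ES-EP A and B against 2 and 11, at 2.53-fold and 2.71-fold. At +10.0 kb, in an exon of the lincRNA 9630013D21Rik (chr4:109329501-109330000), MEL A and B had 3 and 13 reads against 0, and ES-EP A and B had 34 and 36 against 6 and 4. Both ES-EP preparations lay above both MEL preparations, at 5.24 ± 0.238 and 1.19 ± 0.943 RPM (mean ± SD, n = 2 each). Over input the fold was 3.92 (2.01 to 8.53) in ES-EP and, with 0 input reads and a floor of 3, at least 1.80 in MEL cells, so that no order of the folds follows. It was the 1 member window of 64 tested that limma called different between the cell types, with a log2 difference of -2.27 (SE 0.61, adjusted p = 0.0403), lower in MEL cells. The contrast after input, which rests on the same 0 reads, was 1.38 (SE 1.76, adjusted p = 0.937). The call was lost when any of the 4 PU.1 preparations or of the ES-EP inputs was left out, with adjusted p from 0.0646 (without MEL preparation B) to 0.432 (without MEL preparation A), and the log2 difference then ran from -3.11 to -1.46. The adjoining window at +9.5 kb (chr4:109330001-109330500) had 22 PU.1 reads in MEL cells against 0 in input, and 28 against 17 in ES-EP. It was called in MEL cells only. The summits of these windows, chr4:109329963 and chr4:109330002, lie beside their border, so that 1 site may be split between them. Over all tested windows of the genome 0.672% were called different between the cell types. By limma 4 of the 64 member windows had an unadjusted p under 0.05, against 16877 of 141152 over the genome. The median log2 difference was -0.28 in the member windows and 0.01 in all windows.

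Cdkn2d, the inhibitor p19 (chr9:21092907-21095653, minus strand), had 0 called windows of 47 in either cell type, and 0 reads in 1 kb around its start in all 11 libraries. The gene body held 1 read in MEL input, 0 and 1 in MEL A and B, 0 in both ES-EP inputs, and 1 and 2 in ES-EP A and B. Of the 27-base words of the gene body, 3.71% occur once in mm9, against 90.6 to 100.0% in the bodies of the other members, and 2476 of 2747 were found once more, at chr9:123836834-123839608. Because only uniquely aligned reads were deposited, PU.1 at Cdkn2d was not measurable in these files, and the absence of calls over the gene says nothing about occupancy there. The windows away from the gene body, where most words are unique, were measured and were not called.

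**Figure D2:**
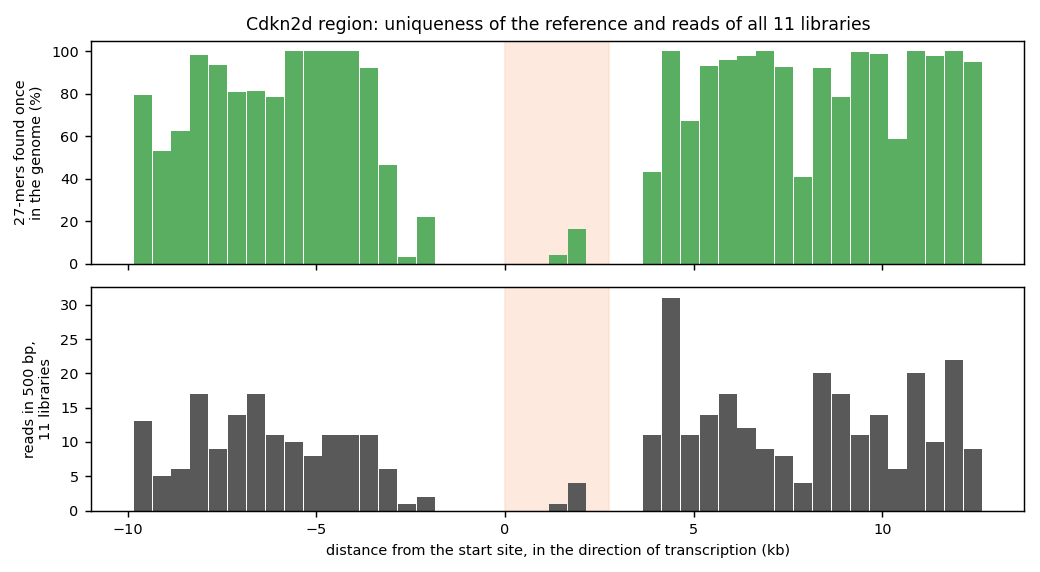
The share of 27-base words found once in mm9 (top, %) and the reads of all 11 libraries per 500 bp window (bottom) against distance from the Cdkn2d start site (kb), with the gene body shaded. Reads are nearly absent where unique words are, over the gene body and beside it.

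At the start sites, counted in 1 kb around each cluster of annotated starts, 4 of the 11 windows of the members were called in MEL cells and 1 in ES-EP. Of all start site windows with at least 1 read 24.1% and 15.1% were called, whereas the 11 include the Cdkn2d start, which had no read. By gene 4 and 1 of 7 members had a called start, against 40.2% and 25.9% of all genes. The MEL calls were Cdkn1c (3.96-fold), Arf (4.37-fold), Cdkn2b (1.56-fold, adjusted p = 0.028 by the exact Poisson test) and the upstream start of Cdkn2c (2.02-fold). The ES-EP call was the upstream start of Cdkn1a (2.49-fold), with 31 and 14 reads in A and B against 2 and 7 in input, where MEL A and B had 3 and 4 against 0. No start was called in both cell types, and the share of all starts called in both is not given here. With 7 members none of these counts was read as particular to them. Without ES-EP preparation A the Cdkn1a start was not called, so that 0 starts were, and without preparation B 3 were, while without MEL preparation B 2 were called in MEL cells. Of all starts with at least 1 read 6.79%, 16.3% and 10.2% were called in these settings.

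At the Cdkn1c start MEL A and B had 17 and 30 reads in 1 kb against 3, and ES-EP A and B had 34 and 23 against 3 and 31. At the Arf start the reads were 19 and 25 against 3 in MEL cells, and 36 and 32 against 7 and 31 for ES-EP. At Cdkn2b they were 16 and 21 against 8 in MEL cells, and 36 and 20 against 9 and 18 for ES-EP. At these starts both MEL preparations lay above the MEL input, and in RPM the PU.1 level of ES-EP overlapped that of MEL cells at Cdkn1c and Cdkn2b and lay above it at Arf. At the upstream start of Cdkn2c MEL A and B had 13 and 41 reads against 9, and ES-EP A and B had 22 and 20 against 9 and 25. Only MEL B stood well above its input there, and in RPM both ES-EP preparations (3.50 and 2.82) lay below both inputs (3.69 and 4.95). The downstream start of Cdkn2c had 3 and 8 reads in MEL A and B against 3, and 7 and 6 in ES-EP A and B against 3 and 6, and was called in neither cell type. The 2 downstream starts of Cdkn1a were not called either: MEL A and B had 5 and 15 reads against 10 at the middle one and 4 and 16 against 5 at the last. ES-EP A and B had 15 and 18 against 4 and 13, and 4 and 10 against 4 and 8. In RPM the PU.1 preparations of each cell type overlapped or lay below its input at both.

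**Figure D3:**
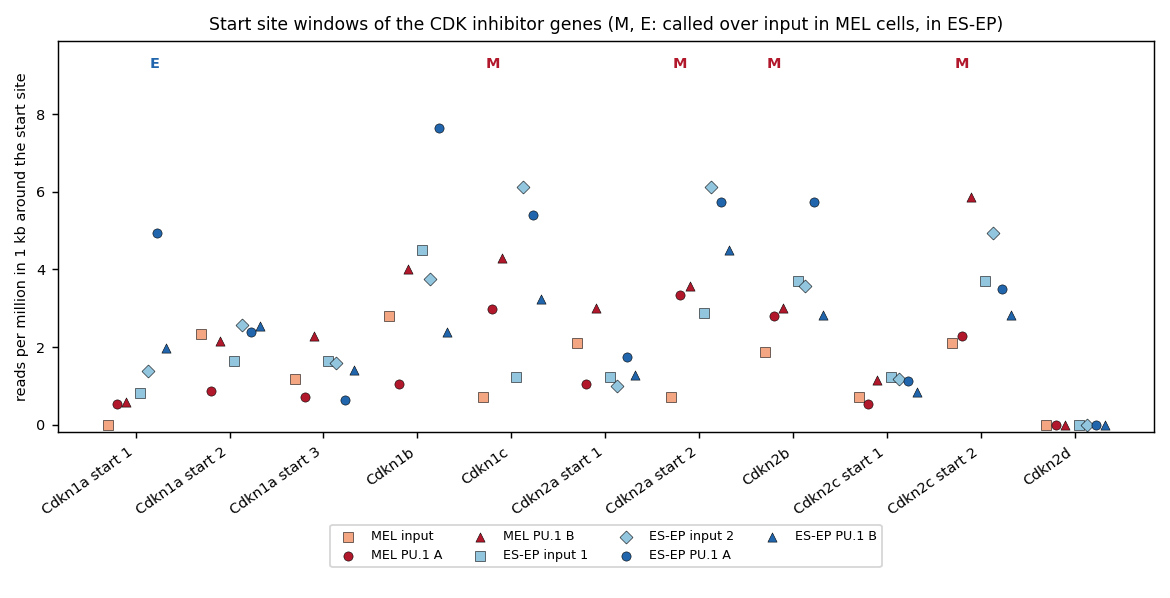
RPM in 1 kb around each start site cluster of the members (y axis), with 1 point for each PU.1 preparation and input library of MEL cells (red) and ES-EP (blue), and letters over windows called over input. At Cdkn1a start 1 both ES-EP PU.1 preparations lie above both MEL preparations, and at the 4 windows called in MEL cells at least 1 ES-EP input library lies above an ES-EP PU.1 preparation.

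The ES-EP input was higher than the MEL input in RPM in 19 of the 24 called windows. It was so in the 11 called in MEL cells only, a count that the call rule favours since it sets reads against input, in 5 of the 9 shared and in 3 of the 4 called in ES-EP only. In 7 of the 11 MEL-only windows the mean of the ES-EP PU.1 preparations was higher than that of MEL cells. Over the genome 3.63% of the MEL input reads fell in start site windows against 5.12% and 6.56% of the ES-EP input libraries, with at least 4.84% of each MEL and 5.33% of each ES-EP PU.1 library. The part of the input in these calls was not tested beyond the contrast after input. In this contrast limma called 0 of 64 member windows (genome 0.034%). Of these windows 2 had an unadjusted p under 0.05, against 6984 of 141152 over the genome, and 0 were called with a trend. Limma also called 0 of 11 start site windows (genome 0.0%), with 0 at an unadjusted p under 0.05, against 2602 of 42397 over all starts. With a trend it called 33 of all starts. A MEL-only call is therefore not shown to be a difference in occupancy between the cell types.

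The preparations themselves differed. Among the 24 called windows MEL preparation B was above A in 19 and ES-EP preparation A was above B in 20, in RPM. Without MEL preparation B 9 of the 20 MEL windows were called, and without ES-EP preparation A 6 of the 13 ES-EP windows. Over the genome the called windows likewise fell, from 28137 to 11326 in MEL cells and from 19481 to 6728 in ES-EP. The counting error of the input also bears on the calls: of 14 MEL calls with at least 1 input read 10 had a ratio of PU.1 to input whose exact 95% interval lay above 1, as had 10 of 12 such ES-EP calls, and the input was 0 at the remaining 6 and 1 calls.

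By limma, which takes the preparations as replicates, the PU.1 signal of the member windows was tested against input in the 64 windows with at least 20 reads. In ES-EP 3 passed, at Cdkn2a (-0.7 kb), Cdkn1c (-5.3 kb) and Cdkn1b (+12.8 kb), against 1.77% of all windows. There 9 had an unadjusted p under 0.05, against 15099 of 141152 windows of the genome. Limma with a trend passed 5 and had 12 at an unadjusted p under 0.05, against 7054 and 22302 of 141152. In MEL cells 0 passed, against 0.513% of all windows, and 12 had an unadjusted p under 0.05, against 15912 of 141152. Limma with a trend passed 1, against 4051 over the genome. The lowest adjusted p values in MEL cells were 0.101 at the Faf1 start and 0.148 at Cdkn2a. Without ES-EP input 2 all 3 calls were lost (adjusted p = 0.864 at Cdkn2a, 0.994 at Cdkn1c and 0.994 at Cdkn1b), without input 1 those at Cdkn1c (0.152) and Cdkn1b (0.987), and without ES-EP preparation A that at Cdkn1c (0.0561). The MEL test rests on 1 input library, which was assumed to vary like the other groups. At the start sites limma called 0 of 11 over input in MEL cells (genome 0.896%) and 0 over that of ES-EP (genome 1.32%). At an unadjusted p under 0.05 were 3 in MEL cells and 0 in ES-EP, against 5894 and 4040 of 42397 over all starts. Limma with a trend called 0 in each.

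Between the cell types limma called 0 of the 11 start sites (genome 0.149%). At an unadjusted p under 0.05 lay 3409 of 42397 starts of the genome and 1 of the members, the upstream start of Cdkn1a. There the log2 difference was -2.35 (SE 0.70, adjusted p = 0.162), lower in MEL cells, and it passed under 1 of 14 alternatives, with -2.24 (adjusted p = 0.0459) when depth was scaled by the median ratio, and had adjusted p from 0.0513 to 0.966 under the others. The contrast after input was 1.12 (SE 1.36, adjusted p = 0.956) and rests on 7 PU.1 reads of MEL cells against 0 in input, while the fold over background was 0.738 in MEL cells and 2.49 in ES-EP. Over all genes voom called 63 start sites, and limma with a trend 0, with 2199 at an unadjusted p under 0.05. Fitted to the PU.1 preparations alone, so that the inputs lent no spread, voom called 0. The median difference of the members' start sites was -0.25 against -0.10 over all start sites. 

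Words of the reference sequence were counted in the called windows. Within 200 bp around the summit, GAGGAA was found on either strand in 5 of the 9 windows called in both cell types, in 1 of the 11 called in MEL cells only and in 3 of the 4 called in ES-EP only. Over the genome the middle 200 bp, not centred on summits, held it in 28.6% of called windows and in 17.9% of every 50th window with a read. In whole 500 bp windows GAGGAA was found in 6 of the shared, 2 of the MEL-only and 3 of the ES-EP-only windows. Over the genome 63.3%, 49.7% and 61.5% of such windows held it, and 39.2% of every 50th window with a read did. The GC content of the summits ran from 45.0 to 72.0% in the shared windows, from 67.0 to 78.0% in the MEL-only windows and from 46.0 to 73.5% in the ES-EP-only windows. The longer word GAGGAAGT lay in 2 of the 24 called windows, against 20.5% of all called windows of the genome. Within 200 bp around the summit it was found in 3 of 24, against 9.04% of the middle 200 bp of all called windows. The Sp1 word GGGCGG lay in 19 of the 24 called windows, against 35.4% of all called windows of the genome, and the E2F words TTTCCCGC and TTTGGCGC in 1 each (genome 1.38% and 0.624%). A match describes the sequence and does not show that a factor binds it.

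Coverage of the input was used to look for a deletion at Cdkn2a and Cdkn2b. At Cdkn2a 102 reads were counted in the MEL input and 58 and 136 in those of ES-EP, a depth-scaled ratio of MEL cells to ES-EP of 0.920 (exact 95% interval 0.717 to 1.18). The Cdkn2b region had 56 against 30 and 87, a ratio of 0.838 (0.598 to 1.16). Neither region stood apart from the reads of its chromosome, at 0.956, or from 1 Mb on each side, at 0.939 and 0.941. In the 50 bins of 10 kb around the Arf start 4 had no input read in either cell type and 0 were empty in only 1 of them. PU.1 and input reads together covered 98.8% (MEL cells) and 97.6% (ES-EP) of the Cdkn2a windows and 82.0% and 80.0% of those of Cdkn2b, where 17.6% of the region has no assembled base. Input reads alone covered 64.6% (MEL cells, 1 library) and 84.1% (ES-EP, 2 libraries) of the Cdkn2a windows and 60.0% and 74.0% of those of Cdkn2b. The Cdkn2b gene body (4744 bp) differed from its region, with 8 reads in the MEL input against 51 in those of ES-EP, a ratio of 0.275 (0.113 to 0.583), and the Cdkn1c gene body was alike at 8 against 50, a ratio of 0.280 (0.115 to 0.595). PU.1 reads in the same Cdkn2b gene body came to 36 and 38 for the MEL preparations, against 49 and 43 for those of ES-EP. Over the regions as a whole no deletion was seen in either cell type, and a loss in some of the cells could not be seen at this depth.

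**Figure D4:**
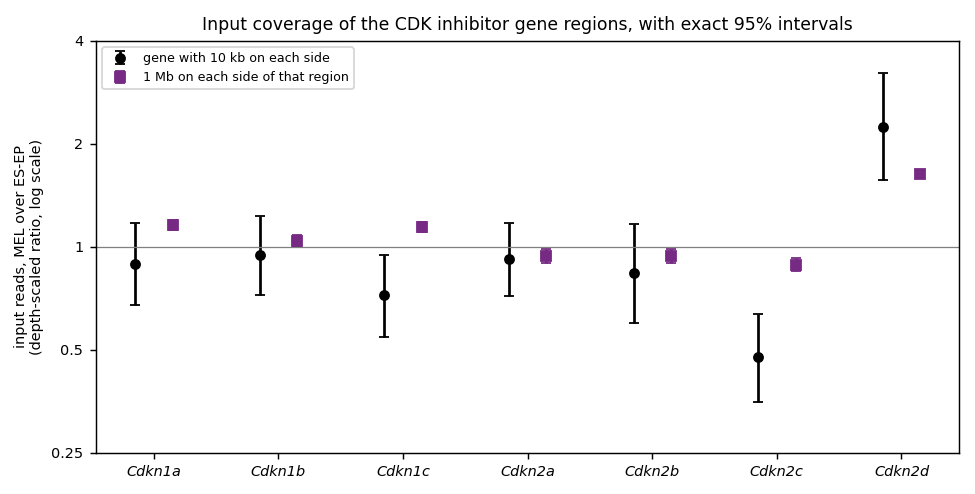
Input reads of MEL cells over those of ES-EP, scaled by depth (y axis, log scale), for each region (black points with exact 95% intervals) and for 1 Mb on each side of it (purple). Cdkn2a and Cdkn2b lie near 1 with their surroundings, Cdkn2c and Cdkn1c lie below 1, and Cdkn2d and its surroundings lie above 1.

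The input of Cdkn2c and Cdkn2d differed more. At Cdkn2c MEL cells had 60 input reads and ES-EP 65 and 156, a ratio of 0.475 (0.351 to 0.635), and 0.755% of 18541 gene regions with at least 100 input reads had a lower one. The window over the start of the neighbouring gene Faf1 held 6 of these MEL reads and 49 of those of ES-EP. At Cdkn2d MEL cells had 73 and ES-EP 16 and 41, a ratio of 2.24 (1.56 to 3.23), and 2.88% of regions had a higher one, the central 95% running from 0.581 to 2.32. Over PU.1 and input together limma called both, Cdkn2c with -0.88 (SE 0.22, adjusted p = 0.0127) and Cdkn2d with 0.91 (SE 0.18, adjusted p = 0.00255) on the log2 scale, while 16.9% of all regions were called. The Cdkn2c call was lost without ES-EP input 1 or input 2 (adjusted p = 0.0543 and 0.097) and over its gene body alone (-0.44, adjusted p = 0.479). The other 5 members were not called, with log2 differences from -0.41 (Cdkn1a) to -0.11 (Cdkn1b).

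The low ratio of Cdkn2c was not shared by 1 Mb on each side (0.887). At Cdkn1c the ratio of the region was 0.721 (0.545 to 0.945), while 1 Mb on each side gave 1.14 (1.10 to 1.18). At Cdkn2d 1 Mb on each side had a ratio of 1.63, and the 4 bins of 500 kb nearest to it ran from 1.51 to 1.69, although chromosome 9 as a whole was at 0.874. In 20 Mb around Cdkn2d 31 of 40 such bins had an interval above 1 and 0 below it, while around Cdkn2a 1 of 40 lay above 1 and 20 below. The share of input reads in start site windows also differed between the cell types, as given above, and its part in these ratios was not tested.

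**Figure D5:**
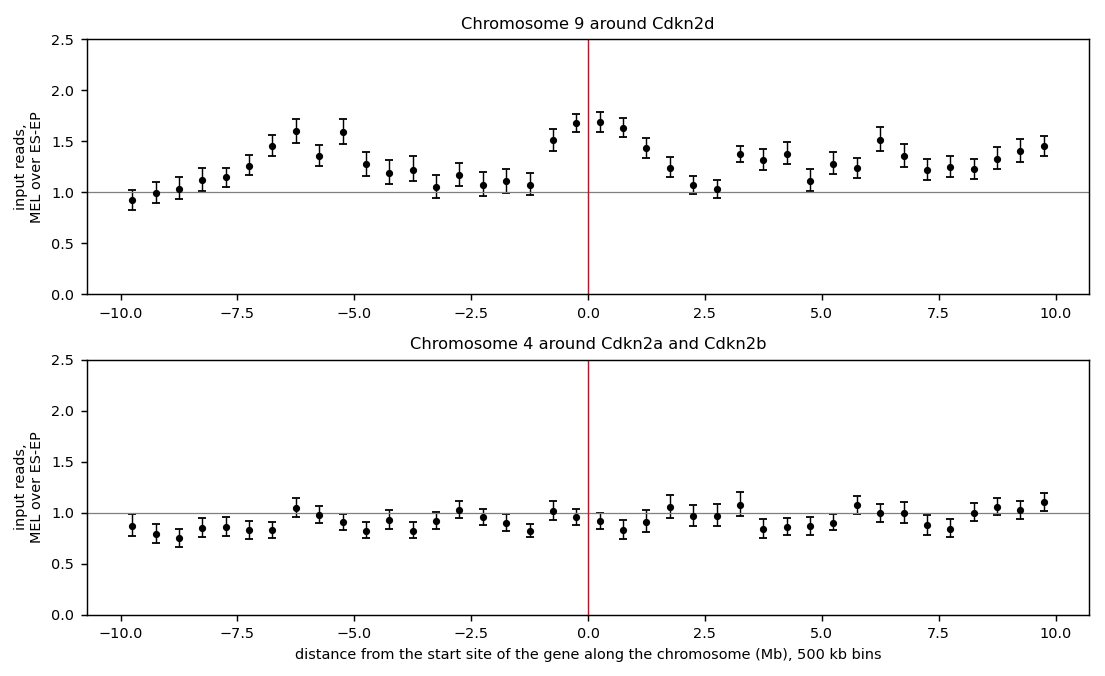
Input reads of MEL cells over ES-EP (y axis, depth-scaled, exact 95% intervals) in 500 kb bins against distance from the start of Cdkn2d (top) and of Cdkn2a and Cdkn2b (bottom), in Mb along the chromosome. The bins within 1 Mb of Cdkn2d lie between 1.51 and 1.69, and those around Cdkn2a lie between 0.746 and 1.10.

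A list of 25 genes on which the inhibitors act or that act with them (cyclins, kinases, the retinoblastoma and E2F families and regulators such as Trp53 and Myc) held 20 genes with a called start in MEL cells and 13 with one in ES-EP, against 40.2% and 25.9% of all genes. Of the 25 genes 10 had a called start in both, and this share over all genes is not given here. Limma called 1 of the 51 start site windows of the list over input in MEL cells (genome 0.896%), that of E2f4, a repressing E2F. In ES-EP it called 2 (genome 1.32%), those of E2f4 and of E2f3, an activating one. At an unadjusted p under 0.05 were 13 and 12 of the 51, against 5894 and 4040 of 42397 over all starts. With a trend no start of the genome was called above input in either cell type, and the calls over all starts, 380 for MEL cells and 560 for ES-EP, fell to 19 and 13 without ES-EP input 1 and to 5 and 4 without input 2. These genes were named after their values were seen. At the E2f4 start MEL A and B had 59 and 153 reads against 9, and ES-EP A and B had 399 and 187 against 10 and 14, the largest counts among the windows of the list. The log2 difference from input was 2.76 in MEL cells (adjusted p = 0.0484) and 3.55 in ES-EP. At the E2f3 start MEL A and B had 14 and 57 reads against 3, and ES-EP A and B had 125 and 53 against 3 and 13, with a log2 difference of 2.60 (adjusted p = 0.0119) in ES-EP. Between the cell types limma called 0 of the 51 (genome 0.149%), with 7 at an unadjusted p under 0.05, against 3409 of 42397 over all starts, and a median of -0.25.

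As a check of the labels, PU.1 at its own gene Sfpi1 was called in both cell types at +0.7 kb from the outermost annotated start (chr2:90922547). The reads were 23 and 96 in MEL A and B against 4, and 33 and 38 in ES-EP A and B against 3 and 0, at 10.0-fold and 10.4-fold. The other annotated starts, chr2:90936253 and chr2:90936937, lie downstream of this window, and the paper describes PU.1 at an element upstream of Sfpi1. Of the Sfpi1 start windows none was called in MEL cells, and 1, at chr2:90936937, was called in ES-EP (1.99-fold). Myog, a muscle gene taken as the negative control, was not free of calls. Its region held 2 called windows of 46 for MEL cells and 1 for ES-EP, at up to 3.62-fold, and its start was called in ES-EP at 2.47-fold. Calls of up to 3.62-fold were thus also met at the negative control. The folds of the shared windows at Cdkn1b (+12.8 kb), Cdkn1c (-5.3 kb) and Cdkn2a (-0.7 kb) were larger in both cell types, a difference from the control that was not tested. That of Cdkn2c (+10.0 kb) rests on 0 reads in the MEL input.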

How the data were processed

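PU.1 ChIP and input libraries of MEL cells and ES-EP (11 libraries, 2054667 to 5051235 reads used in each) were sequenced on an Illumina GAII. The deposited files list uniquely aligned reads with position and strand, which the authors made with ELAND on mm9 allowing 2 mismatches, with no count, score or normalization. Read starts matched mm9 in 99.95 to 100.0% of the reads checked. Here 5′ ends were moved by 70 bp (MEL cells) or 65 bp (ES-EP) towards the fragment centre and counted in 500 bp windows, in 1 kb around start sites (joined within 500 bp) and in gene regions of GENCODE vM1 protein-coding genes. The 2 libraries of a preparation were summed. The labels do not say whether preparations came from separate cultures.

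Windows were called by the exact Poisson test over the larger of window, 5 kb, 10 kb (5.5 and 10.5 kb for windows) and genome input. Between samples limma 3.58.1 voom (R 4.3.3) was fitted to the read counts of all start sites, regions and windows with at least 20 reads, over the 4 preparations and 3 inputs, with Benjamini-Hochberg adjustment. Scripts were tested on simulated data. Python 3.11.15, numpy 2.4.6, pandas 2.3.3, scipy 1.17.1, numba 0.67.0, matplotlib 3.10.9 and samtools 1.23.1 were used. All members were named, with the 3 called windows of most PU.1 reads in each region. The members, lists and motif words were chosen with earlier results of these data known. Alternatives were scaling, duplicate removal, shift, background, window size, thresholds, limma with a trend (pseudocount 0.5), a replicate block and leaving out each sample. Single ES-EP inputs and windows not called were added after seeing the data. The intervals and floors cover counting error only, since reads carry no molecular identifiers.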

Additional observations from a re-analysis of the deposited data

Results flagged for a closer look

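Among 71 groups of 4 libraries of a cell type, in called windows, start sites and whole regions of the members, 2 held a library apart by Dixon's criterion. Chance gives this in about 1 in 20 independent groups, but these groups overlap, since a region holds the reads of its windows and starts. At Cdkn1c, -3.8 kb, the second library of MEL preparation B had 3.29 RPM (reads scaled to equal library depth), and the others had 0.487, 0.823 and 0.731. This window was called in MEL cells only. At the Cdkn2b start (+0.2 kb), the second library of MEL preparation A had 2.2 RPM, and the others had 2.92, 2.92 and 2.82. The 4 libraries together held 20 reads in the Cdkn1c window and 34 in that of Cdkn2b, and the criterion takes no account of counting error. Both libraries set apart are second libraries, which hold 0 mitochondrial or unplaced reads where the first libraries of MEL preparations A and B hold 9930 and 15412. The part of this difference between the files in these values was not tested.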

How the results depend on the processing

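With the genome mean as the only background, the called member windows came to 52 (MEL cells) and 53 (ES-EP), and called starts to 9 and 10. Of all windows with at least 1 read 2.80% and 2.56% were then called, and of all such starts 48.3% and 45.0%. Leaving out a preparation gave 9 to 20 MEL windows, 2 to 4 MEL starts, 6 to 14 ES-EP windows and 0 to 3 ES-EP starts, lowest when MEL B or ES-EP A was the one left out. Over the genome 0.307 to 0.618% of windows and 10.2 to 27.7% of starts were then called in MEL cells. In ES-EP these shares ran from 0.163 to 0.426% and from 6.79 to 16.3%, again lowest without MEL B or ES-EP A. ES-EP input 1 alone, chosen after seeing the data, gave 21 windows and 3 starts, and start windows of 500 bp and 4 kb gave 0 and 2 ES-EP starts. The genome shares were 0.648% of windows and 22.4% of starts with input 1 alone. For start windows of 500 bp and 4 kb they were 13.1% and 18.1%. Between cell types, 1 start was called with median-ratio factors, against 338 of 42397 over the genome. For windows the count was 2 with these factors, with 1 read per position and with each library as a sample, 0 with PU.1 preparations alone and 0 to 1 with a sample left out. Gene regions called in read level numbered 1 with a trend, 0 over gene bodies (that of Cdkn2d is not measurable), 1 to 3 with a sample left out and 1 over input in windows not called (added after seeing the data; the calls that choose these windows depend on the input itself). The log2 read level of the Cdkn1b region reversed with a sample left out, from -0.39 (ES-EP preparation B) to 0.15 (ES-EP preparation A). The cause was not tested. Median-ratio factors moved the median difference of all starts from -0.10 to 0.07.

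The A minus B differences of the cell types showed next to no correlation (r = -0.0635 over 42397 start windows). Counting error in windows with few reads lowers such a correlation, so it cannot tell whether the letters pair the preparations. With the letter as a replicate block the start sites called between cell types were 0 among the members and 16 in the genome, the windows 1 and 1239, and the regions 2 and 3745. Depth limits the tests: 6 of the 20 MEL and 1 of the 13 ES-EP windows had 0 input reads.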
